A study of Mus musculus with 8 samples.

Results

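Tef, Dbp, Per3 and Npas2 are genes of the circadian clock and its output. They were followed in newborn mouse epidermis labelled as knockout for the receptors of insulin and IGF-1. The 4 genes, of 1396 gene symbols named here, were taken by exact gene symbol from the authors' deposited table of knockout against control. They have 5 probe sets there, 2 for Dbp and 1 for each of Tef, Per3 and Npas2, out of 2007 probe sets in that table and 45032 tested on the array. The table holds only probe sets that the authors had selected on these same arrays, with an absolute fold of at least 1.5 and an unadjusted p of at most 0.0499. The lower signals described here are therefore part of how the genes came to have a name, and the fitted values are a description of them.

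The 8 samples are epidermis of newborn C57Bl/6 mice, separated from the dermis. Genotype IR-/-, IGF-1R-/- (dKO) was given for 4 of them and wild type for the other 4, which served as controls. The labels call the samples biological replicates without saying how many animals each holds, so p-values measure the spread between these samples. The deletion strategy and the cells in which it acted are not given in the sources used here. The labels also name no hour of collection. Each sample was hybridised to an Affymetrix Mouse 430 2.0 array, and the values are the deposited signals on a linear scale, 1 per probe set and array.

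The circadian clock is a loop of transcription factors. BMAL1, paired with CLOCK or with its close relative NPAS2, binds E-box sequences and drives the Period and Cryptochrome genes, whose proteins then inhibit that pair. The same pair drives Dbp and Tef, which encode PAR bZIP factors, and these carry the rhythm onward by binding D-box sequences in other genes. Per3 is a Period gene. In many mouse tissues the Dbp, Tef and Per3 transcripts peak at about the same time of day, and Npas2, which responds to the ROR and REV-ERB receptors, peaks close to the opposite time. In mouse epidermis the clock is known for timing keratinocyte division and DNA replication.

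Promoter windows from RefSeq (GRCm38.p6, 250 bases before to 50 after a start site) are shown for Tef and Per3, because these windows hold the motifs of the loop just described. Capitals mark CACGTG, the E-box, in Tef, and TTATGTAA, a D-box, in Per3. Each is written 5′ to 3′ on the strand of the gene. The Tef windows lie on the plus strand at chr15:81802423-81802722 and chr15:81811164-81811463, and the Per3 window on the minus strand at chr4:151044616-151044915.
Tef, upstream start: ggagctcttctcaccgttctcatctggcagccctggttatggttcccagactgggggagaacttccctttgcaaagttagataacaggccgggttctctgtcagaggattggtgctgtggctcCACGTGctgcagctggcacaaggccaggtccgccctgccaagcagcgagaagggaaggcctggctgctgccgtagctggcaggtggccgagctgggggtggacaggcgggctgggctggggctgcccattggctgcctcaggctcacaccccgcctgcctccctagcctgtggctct
Tef, downstream start: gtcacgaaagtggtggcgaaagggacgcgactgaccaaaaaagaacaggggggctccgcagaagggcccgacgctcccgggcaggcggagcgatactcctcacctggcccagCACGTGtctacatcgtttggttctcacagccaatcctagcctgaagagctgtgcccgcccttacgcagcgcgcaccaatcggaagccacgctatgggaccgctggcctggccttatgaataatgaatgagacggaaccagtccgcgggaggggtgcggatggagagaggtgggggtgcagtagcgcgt
Per3: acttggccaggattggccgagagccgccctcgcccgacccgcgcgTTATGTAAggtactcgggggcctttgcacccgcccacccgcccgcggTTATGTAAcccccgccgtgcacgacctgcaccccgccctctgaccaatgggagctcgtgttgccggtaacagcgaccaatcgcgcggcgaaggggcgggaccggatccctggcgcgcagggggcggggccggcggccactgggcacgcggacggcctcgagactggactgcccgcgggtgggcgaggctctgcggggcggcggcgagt

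The E-box began 127 bases upstream of the first Tef start and 138 bases upstream of the second. Of 32851 windows of this length, 7.15% held CACGTG. A window of Tspan4, a clock output gene described below that was higher in dKO, also held CACGTG, beginning 51 bases upstream of the start. The D-boxes of Per3 began 205 and 158 bases upstream of its start. TTATGTAA on either strand was present in 0.938% of the windows, and 2 or more copies were present in 7 of them, or 0.0213%. Searches on both strands for the related TTACGTAA and for TAGGTCA or TGGGTCA, the core bound by ROR and REV-ERB receptors, found no match in the windows of the 4 genes. The Dbp and Npas2 windows, 1 of each, held none of the motifs searched, which says only that these letters are not in those 300 bases. A match is a description of the sequence and not a measured binding site.

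Across the series the arrays had median signals of 40.7 to 51.7 units, and pairs correlated at 0.897 to 0.929 over all tested probe sets. As a sign of RNA quality, the 3′ over 5′ control signal of Gapdh and Actb, averaged on the log2 scale, was -0.039 to 0.054 in dKO, 0.125, 0.248 and 0.073 in control replicates 1 to 3 and -0.004 in control replicate 4, and its part in the clock gene differences was not tested. Insr, the targeted insulin receptor gene, had a mean signal of 72.8 units in dKO and 254 in controls, and 3 of the 4 Igf1r probe sets, for the targeted IGF-1 receptor gene, were lower in every dKO array than in every control. The other Igf1r probe set was higher in every dKO array. These receptor probe sets also have a name only through the authors' selection on this contrast. They are therefore no independent check of the labels, and any unselected probe sets of Insr and Igf1r were not seen. On the first principal component of the brighter probe sets, which held 42% of the variance, controls lay between -41.7 and -24.2, and dKO replicates 1, 3, 2 and 4 at 63.8, 39.3, 30.7 and 4.5. Of 12 keratinocyte markers, 3 had a name here (Krt15, Krt77 and Itga3), with summed signals of 6003 to 13154 units in dKO and 10096 to 15248 in controls. These sums overlap, but by the threshold used below 1 of the 3 rose and 1 fell. These 3 and the markers of other cells have a name only through the authors' selection on this contrast, so their shift was largely set in advance. Of those named, 5 of 7 myeloid, 3 of 3 T cell, 6 of 6 hair follicle and sebaceous and 1 of 2 adipocyte genes fell past the threshold used below, and 1 of 4 fibroblast, 1 of 2 erythroid and 1 of 1 muscle genes rose. Summed signals of the 7 named of 11 myeloid genes were 443 to 1696 in dKO and 2221 to 3538 in controls, of the 3 named of 4 T cell genes 86 to 229 and 418 to 537, and of all 6 hair follicle and sebaceous genes 337 to 940 and 2323 to 10100. The 2 named of 4 adipocyte genes summed to 13 to 49 units in dKO and 56 to 320 in controls. For the 4 named of 10 fibroblast genes the sums were 2441 to 3991 in dKO and 1516 to 2147 in controls, for the 2 named of 5 erythroid genes 164 to 456 and 43 to 71, and for Tpm2, the 1 named of 6 muscle genes, 1586 to 3126 and 455 to 845. Tyrp1, the 1 named of 4 melanocyte genes, read 629 to 1237 and 337 to 810, which overlap, and did not pass, and 0 of 3 endothelial genes had a name. Probe sets with any signal of 0 had been left out beforehand, and each named marker was read by its brightest remaining probe set. The lowest signals were 1 unit for hair follicle and sebaceous, 1.5 for adipocyte, 2.9 for T cell and 6.4 for erythroid genes. The median level of all tested probe sets was 43.7 units. The part of these cell markers in the clock gene differences was not tested, and in whole epidermis fewer cells of a type and less RNA per cell cannot be told apart.

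All 5 probe sets of the 4 clock genes had lower mean signals in dKO, with log2 differences of -1.33 to -0.64, and 1 of them, Tef, fell past the threshold. The threshold was an adjusted p under 0.05 in limma with Benjamini-Hochberg adjustment over all 45032 probe sets, and 1.25% of all probe sets were lower in dKO by it. Among the 1134 probe sets that the authors' deposited table gives as lower in knockout, 38.7% passed it. In 3 of the 5, those of Tef, Per3 and Npas2, every dKO array lay below every control, which was so for 5.93% of all probe sets and for 70.6% of the 1134. The median difference of the 5 was -0.72 on the log2 scale. That of all probe sets was -0.07 and that of the 1134 was -0.93. Nothing is read from the shares of the clock genes, because the same contrast had selected them. Centring each array on its median log2 signal moved the median difference of all probe sets by 0.125, and the 5 clock differences then ran from -1.21 to -0.52.

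**Figure D1:**
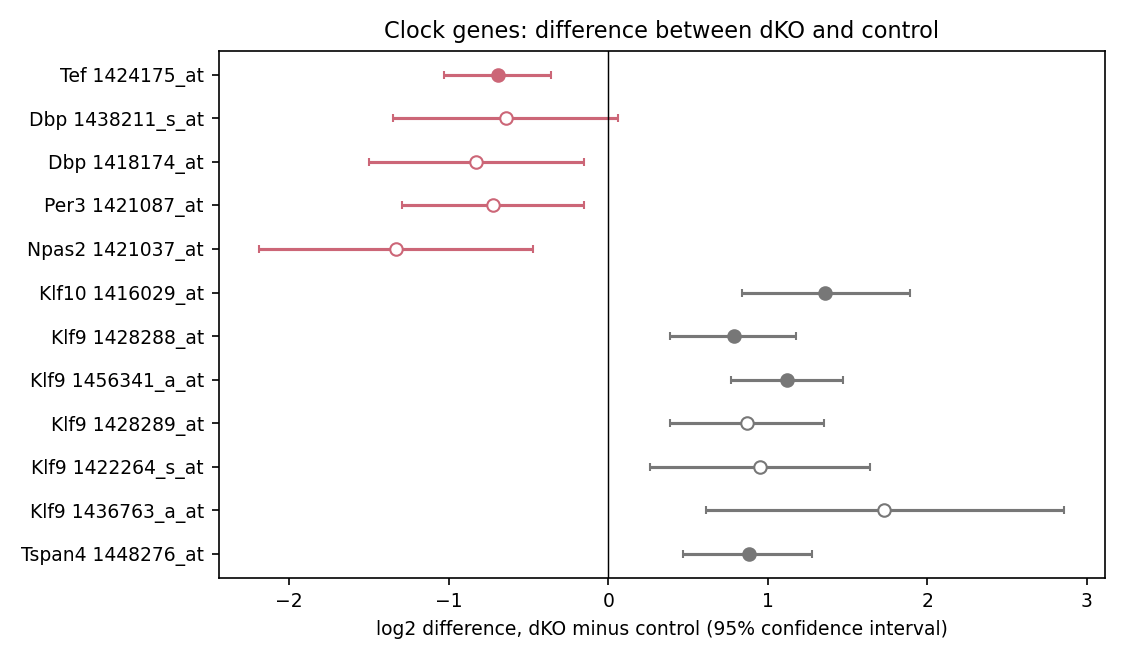
Log2 difference, dKO minus control, with 95% confidence intervals from limma, for the 5 probe sets of Tef, Dbp, Per3 and Npas2 (red) and for the 7 probe sets of the other named clock genes (grey), 4 arrays per group. Filled points passed an adjusted p of 0.05 and open points did not. The red points lie between -1.33 and -0.64, and the interval of 1438211_s_at of Dbp, -1.35 to 0.06, includes 0.

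Tef encodes thyrotroph embryonic factor, a PAR bZIP activator that binds D-boxes. Its probe set 1424175_at read 208.8, 300.6, 274.4 and 347.5 units in dKO replicates 1 to 4 and 437.1, 424.7, 488.3 and 451.2 units in control replicates 1 to 4. The groups did not overlap, and the lowest control was 1.22 times the highest dKO array. Controls were close together and dKO arrays spread more widely, with coefficients of variation of 6.11% and 20.5%. The dKO mean was 283 ± 57.9 and the control mean 450 ± 27.5 (SD, n = 4 each). Tef fell 1.62-fold, a log2 difference of -0.69 (SE 0.15, 95% confidence interval -1.03 to -0.36, limma Benjamini-Hochberg adjusted p = 0.0381). The call did not hold in most fits with 1 array left out. It held without dKO replicate 1 or dKO replicate 4 (limma Benjamini-Hochberg adjusted p = 0.0419 and 0.0161). It ended without any of the other 6, with log2 differences of -0.73 to -0.65 and limma Benjamini-Hochberg adjusted p of 0.0774 without dKO replicate 2, 0.105 without dKO replicate 3, and 0.108, 0.0864, 0.11 and 0.0642 without control replicates 1, 2, 3 and 4. It also ended with median centring (-0.57, adjusted p = 0.0594) and without the intensity trend of the variance (adjusted p = 0.201). In the authors' deposited table the ratio of knockout over control was 0.612.

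Dbp encodes the D-site albumin promoter binding protein, a PAR bZIP factor like TEF, and its transcript has one of the strongest daily rhythms in mouse tissues. The brighter probe set, 1438211_s_at, read 60, 166.6, 97.7 and 210.3 units in dKO replicates 1 to 4 and 158, 177, 234.6 and 187 in control replicates 1 to 4. The other, 1418174_at, read 42.5, 96.6, 51.8 and 97.7 in dKO and 106.7, 136.7, 161 and 87.2 in controls. In both probe sets dKO replicates 1 and 3 lay below every control, and dKO replicates 2 and 4 lay within the control range. In the brighter probe set, dKO replicate 4 exceeded 3 of the controls.

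The dKO arrays varied more for Dbp than for the other 3 genes, with coefficients of variation of 50.5% and 40.4%, against 17.2% and 26.5% in controls. Mean signals were 134 ± 67.5 and 189 ± 32.6 units in dKO and controls for the brighter probe set (SD, n = 4 each). For the dimmer one they were 72.1 ± 29.1 and 123 ± 32.6. The log2 differences were -0.64 (SE 0.33, 95% confidence interval -1.35 to 0.06) and -0.83 (SE 0.31, interval -1.5 to -0.15), and neither passed (adjusted p = 0.386 and 0.224, limma with Benjamini-Hochberg adjustment). Exact two-sided permutation tests over the 8 arrays gave p = 0.229 and p = 0.114. Without dKO replicate 1 the difference of the brighter probe set was -0.31 and that of the dimmer one -0.60. The authors' deposited table gave ratios of 0.445 and 0.659, so the probe set with the larger difference there had the smaller one here.

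Per3 encodes a Period protein that is dispensable for the core loop in mice, and its transcript is rhythmic in many tissues. Its probe set 1421087_at read 50.1, 50.3, 46 and 46.5 units in dKO replicates 1 to 4 and 114, 57.8, 82.8 and 72.7 in control replicates 1 to 4. The dKO arrays were nearly equal, with a coefficient of variation of 4.75%, and the controls spread over 29.1%. The groups did not overlap, and the lowest control, replicate 2, was 1.15 times the highest dKO array. The dKO mean was 48.2 ± 2.29 and the control mean 81.8 ± 23.8 (SD, n = 4 each). The log2 difference was -0.72 (SE 0.26, 95% confidence interval -1.29 to -0.15), short of the threshold (adjusted p = 0.208 in limma after Benjamini-Hochberg adjustment). With 32 added to each signal before the logarithm it was -0.48, and without control replicate 1, the highest, it was -0.55. The authors' deposited table gave a ratio of 0.587 with an unadjusted p-value of 0.000363, the smallest there among the 5 probe sets. The unadjusted p-value of Per3 in limma was 0.0179.

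Npas2 encodes a bHLH-PAS partner of BMAL1 that can take the place of CLOCK. Its probe set 1421037_at read 17.1, 16.2, 14.7 and 22.4 units in dKO replicates 1 to 4 and 48.7, 41.4, 63.9 and 28.4 in control replicates 1 to 4. The groups did not overlap. The arrays closest to each other were those numbered 4, the lowest control and the highest dKO array, at a ratio of 1.27. Means were 17.6 ± 3.35 and 45.6 ± 14.8 units in dKO and controls (SD, n = 4 each). The fit on the log2 scale gave a 2.52-fold lower level in dKO. The log2 difference of -1.33 (SE 0.40, 95% confidence interval -2.19 to -0.47) was the largest of the 5 and also short of the threshold (adjusted p = 0.115 in limma after Benjamini-Hochberg adjustment). Npas2 was also the dimmest of the 5, at the 42.7th percentile of mean level over all probe sets, and no detection call was used here. With 32 added to each signal the difference was -0.63. With both arrays numbered 4 left out it was -1.66 (limma Benjamini-Hochberg adjusted p = 0.0722). The ratio in the authors' deposited table was 0.515. For Tef, Per3 and Npas2 the exact two-sided permutation p over the 8 arrays was 0.0286, the smallest that 4 against 4 arrays can give. That value restates that the groups did not overlap. The authors' selection on these same arrays favoured it, so it is a description and no added support.

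**Figure D2:**
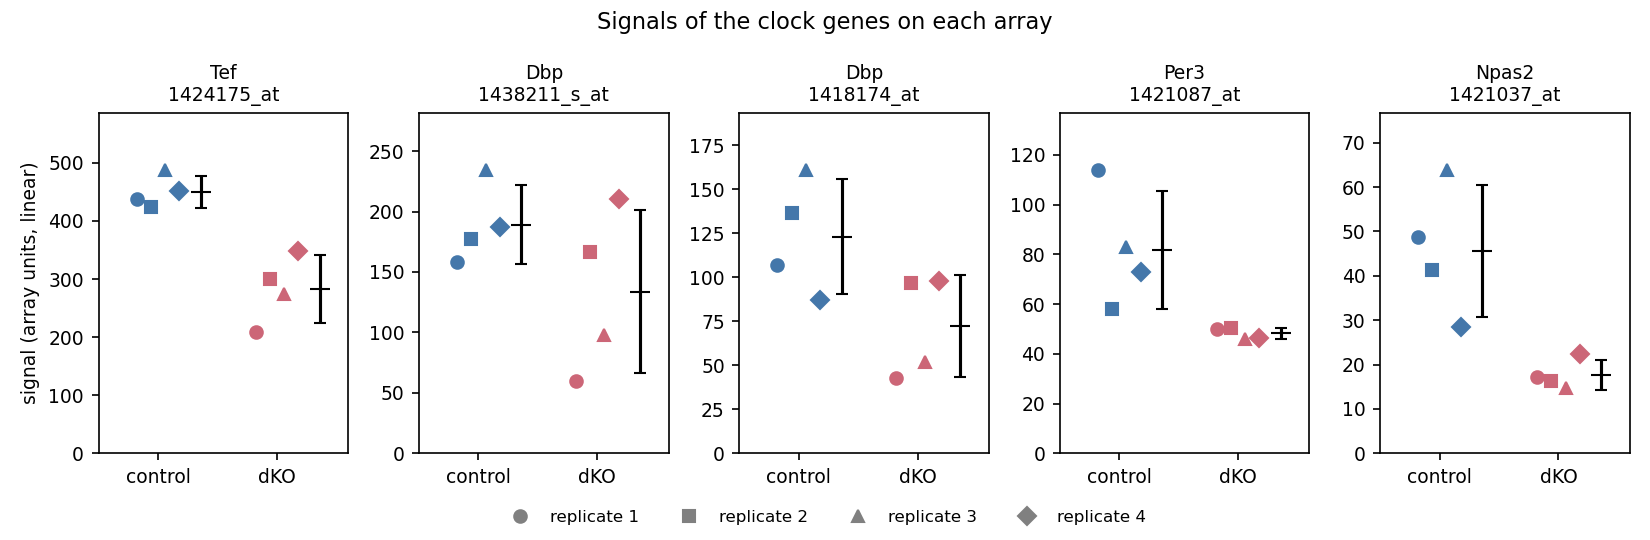
Signal in array units on a linear axis from 0 for each probe set of Tef, Dbp, Per3 and Npas2, by group. Each symbol is 1 array, with the shape giving the replicate number, and the bar is the mean ± SD of 4 arrays. Tef, Per3 and Npas2 show no overlap between groups, whereas dKO replicates 2 and 4 reach the control range for Dbp.

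**Figure D3:**
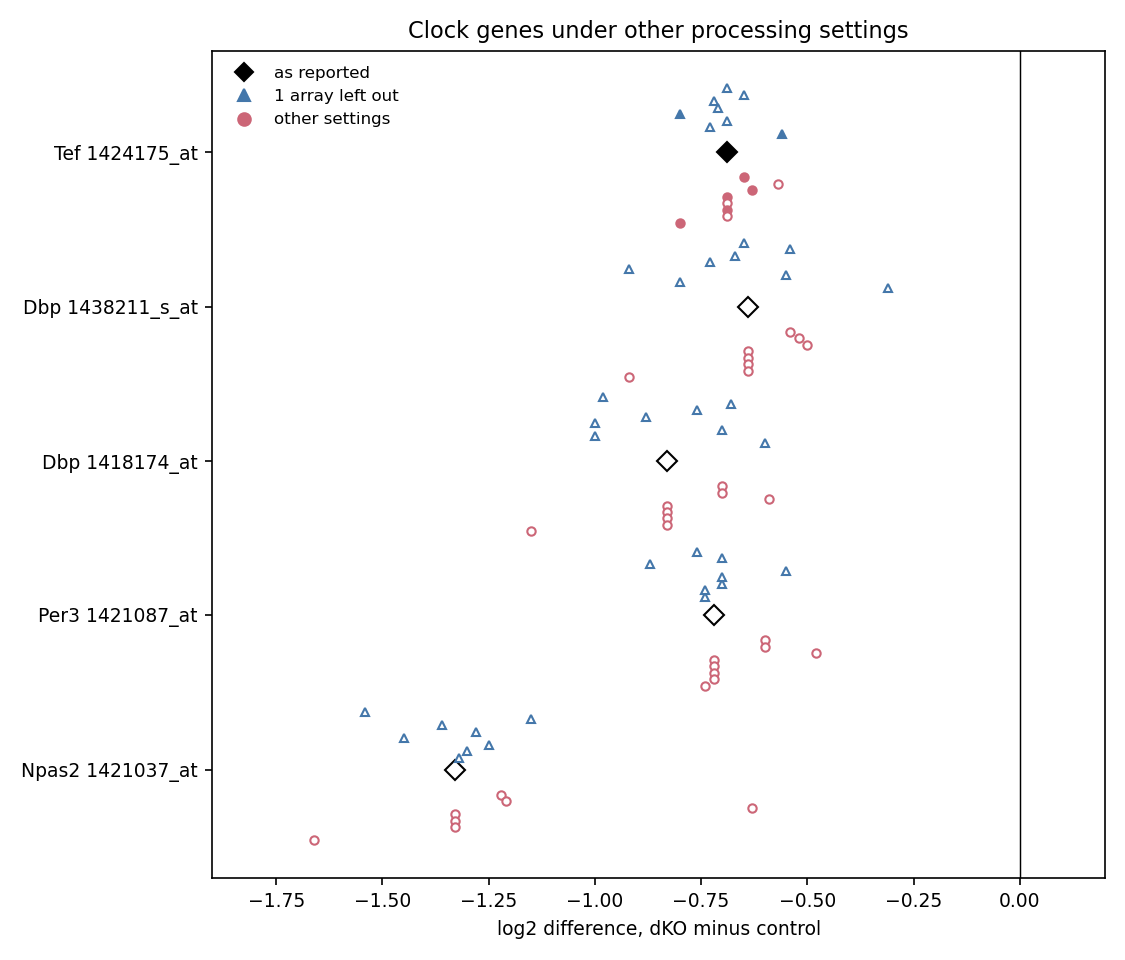
Log2 difference, dKO minus control, for each of the 5 probe sets as reported (diamonds), with 1 array left out (triangles) and under the other settings (circles). Filled symbols passed an adjusted p of 0.05 and open ones did not. Every value lies below 0, from -1.66 for Npas2 to -0.31 for Dbp, and the filled symbols all belong to Tef.

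Tef and Dbp ranked the dKO arrays alike. In Tef and in both Dbp probe sets, dKO replicate 1 was lowest, followed by replicates 3, 2 and 4. This was also the order of the dKO arrays on the first principal component, from the array farthest from the controls to the nearest. Relative to the control mean, dKO replicate 1 stood at -1.11 for Tef and at -1.64 and -1.49 for Dbp on the log2 scale, and dKO replicate 4 at -0.37 for Tef and at 0.17 and -0.29 for Dbp. Per3 did not follow this order, and its dKO arrays lay between -0.79 and -0.66. For Npas2 they lay between -1.57 and -0.97, with replicate 3 lowest and replicate 4 highest. Among controls, replicate 3 had the highest signal for Tef, for both Dbp probe sets and for Npas2, and replicate 1 for Per3. Median signals of dKO replicates 1 to 4 were 40.7, 45.3, 45.8 and 47.4 units. In control replicates 1 to 4 they were 46.4, 46.3, 50.9 and 51.7. The part of the arrays' overall position and of their median signals in these levels was not tested.

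**Figure D4:**
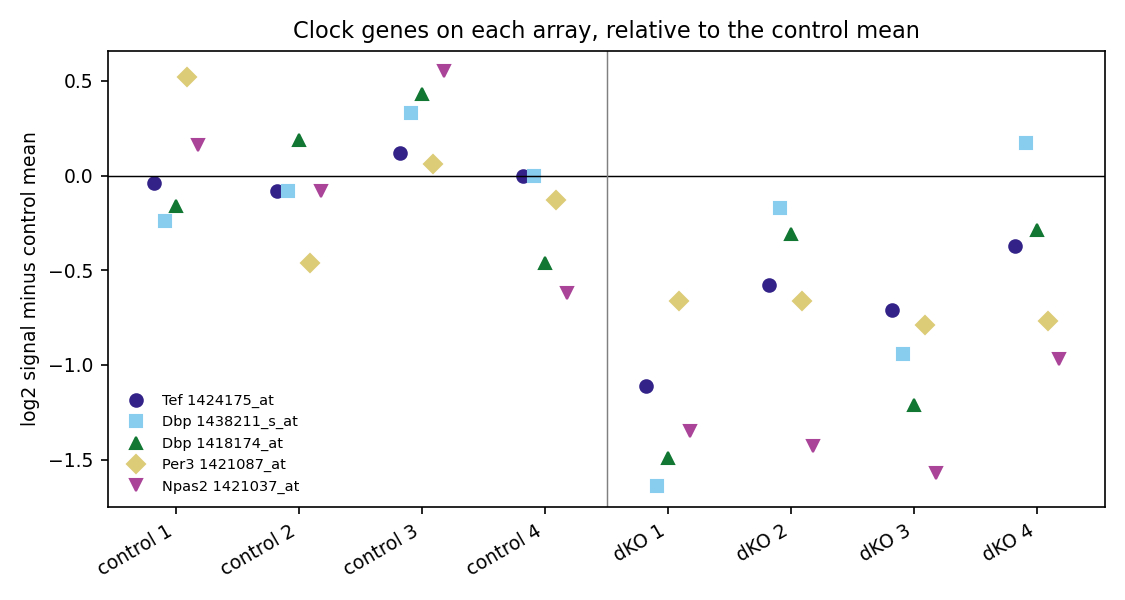
Log2 signal minus the mean of the 4 controls, for each probe set of Tef, Dbp, Per3 and Npas2 on each array. The line at 0 is the control mean. In dKO, Per3 stays between -0.79 and -0.66 while 1438211_s_at of Dbp spans -1.64 to 0.17.

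Whether the genes differed in the size of their change was examined with the log2 ratio of 2 probe sets within each array, for all 10 pairs. The largest shift was between the brighter Dbp probe set and Npas2, whose ratio was 2.78 in dKO and 2.10 in controls, a difference of 0.69 (SE 0.42). Tef over Npas2 differed by 0.64 (SE 0.27) and Per3 over Npas2 by 0.61 (SE 0.29). Exact two-sided permutation p values over the 10 pairs ran from 0.0857 to 0.886, and after Benjamini-Hochberg adjustment from 0.429 to 0.886. With 4 against 4 arrays, a single differing pair among the 10 could reach an adjusted p of 0.286 at best, so this design could hardly resolve a difference in size. Tef and Per3 had the closest differences, with a shift of 0.03 in their ratio (SE 0.27), an error that would allow unequal change.

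Of 33 other genes of the clock and its output on the list used here, 3 had a name, all of them outputs. The transcription factors of the core loop on that list, among them Arntl, Clock, Per1, Per2, Cry1, Cry2, Nr1d1 and Nr1d2, had no name and were not analysed here, which does not show that they were unchanged. A name required a probe set with exactly 1 symbol in the authors' deposited table, which holds 2007 of the 45101 probe sets, selected by fold and p. No such probe set was listed there for these genes. The 3 named genes, Klf10, Klf9 and Tspan4, were higher in dKO in all 7 of their probe sets, with log2 differences of 0.79 to 1.73 and a median of 0.95. Of these probe sets 4 rose past the threshold, 0 fell and 3 did not pass. By the same threshold 0.993% of all probe sets were higher in dKO, and 43.5% of those that the authors' deposited table gives as higher, which is again the contrast that named these genes.

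Klf10, a Krüppel-like factor that the clock drives in mouse liver, read 823.1, 1376, 1370 and 1243 units in dKO replicates 1 to 4 and 427.8, 336.2, 392.6 and 785.8 in controls. The groups were apart, with control replicate 4 close to dKO replicate 1. Klf10 rose by 1.36 (SE 0.24, limma Benjamini-Hochberg adjusted p = 0.0132), a call that was lost on leaving out dKO replicate 3 (adjusted p = 0.0506) or control replicates 1, 2 and 3 in turn (adjusted p = 0.0563, 0.0503 and 0.0527). Klf9 is a Krüppel-like factor whose transcript cycles in human keratinocytes and responds to glucocorticoids. Its probe set 1456341_a_at read 775.2, 966.2, 634.7 and 796.2 units in dKO and 460.5, 339.6, 370.7 and 292.3 in controls. It rose by 1.12 (SE 0.16, limma Benjamini-Hochberg adjusted p = 0.00466), and this call held with each single array left out.

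The other 4 Klf9 probe sets had differences of 0.79, 0.87, 0.95 and 1.73. The last, of the dimmest probe set 1436763_a_at, with 7.1 units in control replicate 4, was 0.91 with 32 added to each signal, 1.04 with both arrays numbered 4 left out and 1.17 without control replicate 4. Of these only 1428288_at passed (0.79, limma Benjamini-Hochberg adjusted p = 0.0455), and its call ended with any single array left out, with adjusted p of 0.055 to 0.134. Tspan4, a tetraspanin, read 124.1 to 175.6 units in dKO and 74.7 to 85.5 in controls. It rose by 0.88 (SE 0.19, limma Benjamini-Hochberg adjusted p = 0.0301), and the call held without dKO replicate 1 or control replicate 4 and ended without any of the other 6 arrays, with adjusted p up to 0.101.

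The named probe sets with the profiles most like those of the 4 genes were found among 1570 probe sets at or above the median level. Likeness was the mean absolute difference of the log2 signals over the 8 arrays, with each profile set to a mean of 0. Nearest to Tef were 5031439G07Rik (0.070), Fam134b, a receptor for autophagy of the endoplasmic reticulum (0.073), and Snx11, a sorting nexin (0.086). Their log2 differences were -0.74, -0.68 and -0.70, and all 3 fell (limma Benjamini-Hochberg adjusted p = 0.0161, 0.0094 and 0.0422). The distance from Tef to its nearest clock gene, Per3, was 0.258.

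Profiles near those of the other genes lay farther away. Nearest to the brighter Dbp probe set were Ggct, an enzyme of glutathione turnover (0.174), Pdlim2, a PDZ and LIM domain protein (0.174), and Srr, serine racemase (0.180). The other Dbp probe set stood at 0.241 and Tef at 0.272. Nearest to Per3 were 5730601F06Rik (0.138), Kbtbd7 (0.138) and Arhgap18 (0.152). Nearest to Npas2 were Mettl7a1 (0.153), Hs3st6, a heparan sulfate sulfotransferase (0.160), and Dock10 (0.162). Of these 9 probe sets 3 fell, with log2 differences of -0.63 for Kbtbd7, -1.18 for Mettl7a1 and -1.52 for Hs3st6 (limma Benjamini-Hochberg adjusted p = 0.0269, 0.0198 and 0.00613). All 12 were lower in dKO, which the selection of named genes and the measure of likeness both favour.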

How the data were processed

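Biotin-labelled cRNA from Trizol-extracted RNA was hybridised, per the labels' protocols. The deposited intensity values are linear, 1 per probe set and array, and each array has a 2% trimmed mean of 250. The submitters' processing notes name MAS5 and Partek without role or version. The authors' deposited table lists, for a selected part of the probe sets, a knockout to control ratio, its signed fold and, for a factor called Strain, an F statistic (used as a score), with unadjusted p-values for Strain and for knockout against control that were equal in every entry. How its values were normalized was not stated.

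Gene names came from the authors' deposited table, where 1804 of 2007 probe sets have exactly 1 symbol. Affymetrix control probe sets (64) and probe sets with any signal of 0 (5) were dropped from the 45101. The remaining 45032 were put on the log2 scale with no offset, from the deposited intensities, and tested all together in limma 3.58.1 (R 4.3.3; lmFit, eBayes, variance trend on intensity). Genotype was the only term, and Benjamini-Hochberg adjustment ran over all of them. The procedure was tested on simulated data. The number of arrays limits the precision.

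The 4 genes and the clock list were chosen with earlier results of these data known. Named were every probe set of the 4 genes and of the named clock list genes, Insr and Igf1r, cell markers, and for each gene the 3 nearest profiles. Alternatives were quantile normalization, median centring, an offset of 32, testing only brighter probe sets, other variance models, the replicate number as a block, and leaving out arrays. Deviations of same-numbered arrays from their group means correlated at -0.088 to 0.043, so the numbers were not taken as pairs.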

Additional observations from a re-analysis of the deposited data

How the results depend on the processing

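All 5 probe sets of Tef, Dbp, Per3 and Npas2 stayed lower in dKO under every alternative run, and those of Dbp, Per3 and Npas2 passed in none. Npas2 lies under the median level and has no value in the test of brighter probe sets. Tef had log2 differences of -0.80 to -0.56 with single arrays left out. Its call ended with median centring (-0.57), without the intensity trend (-0.69) and with the replicate number as a block (-0.69, limma Benjamini-Hochberg adjusted p = 0.0642), and the block did not change the call of any other of the 5. The count of changed probe sets, 1012 (447 higher and 565 lower), was 60 without the intensity trend and 1525 with both arrays numbered 4 left out. With single arrays left out it was 353 to 1417: 508 without dKO replicate 2, 438 without dKO replicate 3, and 353, 431 and 529 without control replicates 1, 2 and 3. The split turned to 607 higher and 322 lower with median centring and to 470 and 465 with quantile normalization. Of the 7 probe sets of Klf9, Klf10 and Tspan4, 4 passed as reported, 2 with the replicate block, 2 with both arrays numbered 4 left out and 1 to 3 with single arrays left out. Without the intensity trend limma called 0 of them, with 7 at an unadjusted p under 0.05. Why the counts moved was not tested. The size of the difference of Npas2, the dimmest of the 5, depends on the offset (-0.63 with 32 added).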
